A study of Mus musculus with 10 samples.

Results

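The miR-290 and miR-302 clusters are miRNA genes known for their activity in pluripotent cells, and their H3K4me3 and open chromatin were described here in F123 cells. The members were 8 listed genes of the mm10 GENCODE annotation, out of 2202 annotated miRNA genes. They comprised 3 genes of the miR-290 cluster (Mir291a, Mir294 and Mir295) and 5 of the cluster of miR-302 and Mir367, called the miR-302 cluster below (Mir302a, Mir302b, Mir302c, Mir302d and Mir367). The rule lists them by name and uses no measured value. Peaks were taken over each cluster and up to 30 kb on either side.

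F123 is a mouse embryonic stem cell line from an F1 cross of Mus musculus castaneus and S129/SvJae. The line was grown on irradiated CF1 fibroblast feeder cells, in medium with LIF and knockout serum replacement, and passed once on gelatin without feeders before harvest. H3K4me3 was measured by ChIP-seq in 2 samples of 2000000 fixed cells, and open chromatin by ATAC-seq in 2 samples of 100000 fresh cells. The study's CTCF and H3K4me3 PLAC-seq samples and its ChIP-seq input samples were not analysed here. All samples are untreated cells of this line, so no treatment or genotype is compared.

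The deposited H3K4me3 list held 33487 peaks and the ATAC-seq list 179109 peaks. Each list stands for both replicates, holds no read counts and gives no value per replicate. The depth behind a peak and its spread between replicates are therefore unknown, and no difference below was tested. Each H3K4me3 peak has a fold enrichment over the background of the peak caller, with a median of 8.93 over the list, and a −log10 q. The ATAC-seq list holds positions only, so a peak there is either listed or not, and weak peaks cannot be told from strong ones. The paper gives a p-value cutoff for calling them and names no q-value cutoff. Of 5 stem cell marker genes, 4 had an H3K4me3 peak at their start (within 1 kb), and so did 5 of 6 fibroblast marker genes, against 65.1% of all 21951 protein-coding genes. The strongest such peaks ranged from 14.9 to 42.9 in fold enrichment at Pou5f1, Sox2, Nanog and Zfp42, and from 13.9 to 20.4 at the fibroblast genes Col1a1, Col1a2, Thy1, Twist2 and Prrx1. Esrrb had none at its outermost start, although 4 of the 5 starts annotated had a peak, and Col3a1 had none at any of 6 starts. An ATAC-seq peak was listed at the start of 5 of 5 stem cell markers and 5 of 6 fibroblast markers, against 70.9% of all protein-coding genes. What feeder cells contributed to the peaks at the miRNA genes was not tested.

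A miRNA is cut from a hairpin in a longer primary transcript, and both arms of the hairpin can yield a mature RNA. Bases 2 to 8 of the mature RNA, the seed, pair with the target mRNA, and miRNAs with the same seed share most of their targets. The miR-290 cluster is known as the most abundant miRNA family of mouse embryonic stem cells and promotes their rapid passage from G1 to S phase. The miR-302 cluster is known to rise as cells move towards the epiblast state, and its miRNAs are used in reprogramming. Trimethylation of histone H3 at lysine 4 (H3K4me3) marks promoters, and ATAC-seq finds DNA that the Tn5 transposase can reach.

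The mature sequences are shown first because the seed is what the clusters have in common. They were taken from RefSeq (GRCm38.p6), where all 8 members matched and 15 mature arms were found. The 3p arms are printed from 5′ to 3′ with the seed in capitals, starting with the miR-290 cluster on chromosome 7.
miR-291a-3p: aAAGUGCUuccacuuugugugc
miR-294-3p: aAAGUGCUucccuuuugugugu
miR-295-3p: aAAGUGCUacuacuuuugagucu
miR-302b-3p: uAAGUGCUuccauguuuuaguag
miR-302c-3p: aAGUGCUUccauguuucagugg
miR-302d-3p: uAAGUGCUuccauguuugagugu
miR-367-3p: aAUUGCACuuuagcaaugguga
miR-302a-3p, and miR-292a-3p of the miR-290 cluster, were not analysed here, and the counts of arms below do not cover them.

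Across chromosomes 7 and 3 the same seed, AAGUGCU, was found in miR-291a-3p, miR-294-3p, miR-295-3p, miR-302b-3p and miR-302d-3p. No other of the 1679 RefSeq mature arms analysed carried it. In miR-302c-3p the same letters start 1 base earlier, so that its seed reads AGUGCUU. miR-367-3p has an unrelated seed, AUUGCAC, which it shares with miR-25-3p, miR-32-5p, miR-92a-3p, miR-92b-3p and miR-363-3p. The shorter core AAGUGC within bases 1 to 9 was found in 19 of the 1679 arms. These include miR-17-5p, miR-20a-5p, miR-20b-5p, miR-93-5p, miR-106a-5p and miR-106b-5p, which belong to the miR-17 family of cell cycle regulators.

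Over their whole length the 3p arms with the letters AAGUGCU differed more between the clusters than among the miR-302 genes. Aligned without gaps, miR-302b-3p and miR-302c-3p were identical at 20 of 22 bases, and miR-302b-3p and miR-302d-3p at 20 of 23. miR-291a-3p and miR-294-3p were identical at 19 of 22 bases, but miR-294-3p and miR-295-3p at 12 of 22. Between the clusters, miR-302b-3p matched miR-291a-3p at 14 of 22 bases, and the closest pair, miR-302d-3p and miR-295-3p, matched at 17 of 23. miR-367-3p, the arm with another seed, matched the other 3p arms at 33.3% to 40.9% of bases.

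The 5p arms carry other seeds and are shown for the miR-302 genes, where the 5p arm of Mir302a differs from the rest in its seed.
miR-302b-5p: aCUUUAACaugggaaugcuuucu
miR-302c-5p: gCUUUAACaugggguuaccugc
miR-302d-5p: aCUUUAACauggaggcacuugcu
miR-302a-5p: aCUUAAACgugguuguacuugc
The seed CUUUAAC occurred in these 3 arms and in no other arm analysed, and CUUAAAC in miR-302a-5p alone. In the miR-290 cluster, miR-291a-5p (seed AUCAAAG) shares its seed with miR-291b-5p of the same cluster. miR-294-5p and miR-295-5p have the seeds CUCAAAA and CUCAAAU.

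All 8 members lay under an H3K4me3 peak, whereas 14.0% of all miRNA genes did (308 of 2202). The 2202 genes include 1028 whose symbol does not start with Mir. Shares over Mir symbols alone are given at the end, for clusters only, and are higher. These 8 genes rest on 2 peaks, 1 for each cluster, and so are not 8 separate observations. Only Mir291a was itself overlapped by an ATAC-seq peak (1 of 8), against 14.4% of all miRNA genes. With the 5 kb upstream of each gene included, H3K4me3 was listed for 8 of 8 members and an ATAC-seq peak for 8 of 8, against 26.1% and 47.3% of all miRNA genes (95% Wilson intervals 24.3 to 27.9% and 45.2 to 49.4%, for counting error only).

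The miR-290 cluster lies on the plus strand of chromosome 7 (mm10). Its 3 members span chr7:3218919-3220841, or 1923 bp, and with Mir290a, Mir292, Mir291b and Mir293 on the same strand the hairpins run from 3218626 to 3220841. Mir290b and Mir292b are annotated on the minus strand at the hairpins of Mir290a and Mir292. A single wide H3K4me3 peak, chr7:3217362-3221221, covered all of these hairpins. Its width was 3860 bp, its fold enrichment 25.4 and its −log10 q 219. It began 1264 bp before the Mir290a hairpin and ended 380 bp past Mir295, and its summit lay 9 bp before the first base of the Mir290a hairpin. The peak ranked higher in width than in strength, wider than 96.2% of the list and stronger than 72.9%.

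Within this peak the chromatin was open in 4 separate ATAC-seq peaks, 3 of them wholly inside it. The first, chr7:3217489-3217926 (438 bp), ended 700 bp before the Mir290a hairpin. The second, chr7:3218718-3219201 (484 bp), began just past Mir290a, covered the whole of Mir291a and reached the start of Mir292. The next, chr7:3219314-3219867 (554 bp), covered Mir291b. The last, chr7:3221085-3221866 (782 bp), began 244 bp past Mir295 and ran out of the H3K4me3 peak. Together they took up 1613 bp (41.8%) of the H3K4me3 peak.

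Mir291a (chr7:3218919-3219000, plus strand, 82 bp) was thus the only member overlapped by an ATAC-seq peak. This 1 of 8 is near the 14.4% of all miRNA genes. A hairpin without a listed peak is not shown to be closed. The first base of Mir291a lay 302 bp past the H3K4me3 summit. Mir294 (chr7:3220641-3220724, 84 bp) and Mir295 (chr7:3220773-3220841, 69 bp) began 2024 and 2156 bp past that summit, and the ATAC-seq peak nearest to them was 361 and 244 bp away. All 3 members fall in an annotated exon of Nlrp12, antisense to it. Nlrp12, which encodes an innate immune receptor, runs on the minus strand from its start at 3249740 back to 3218784. Its start had no H3K4me3 peak within 1 kb and 1 ATAC-seq peak.

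**Figure D1:**
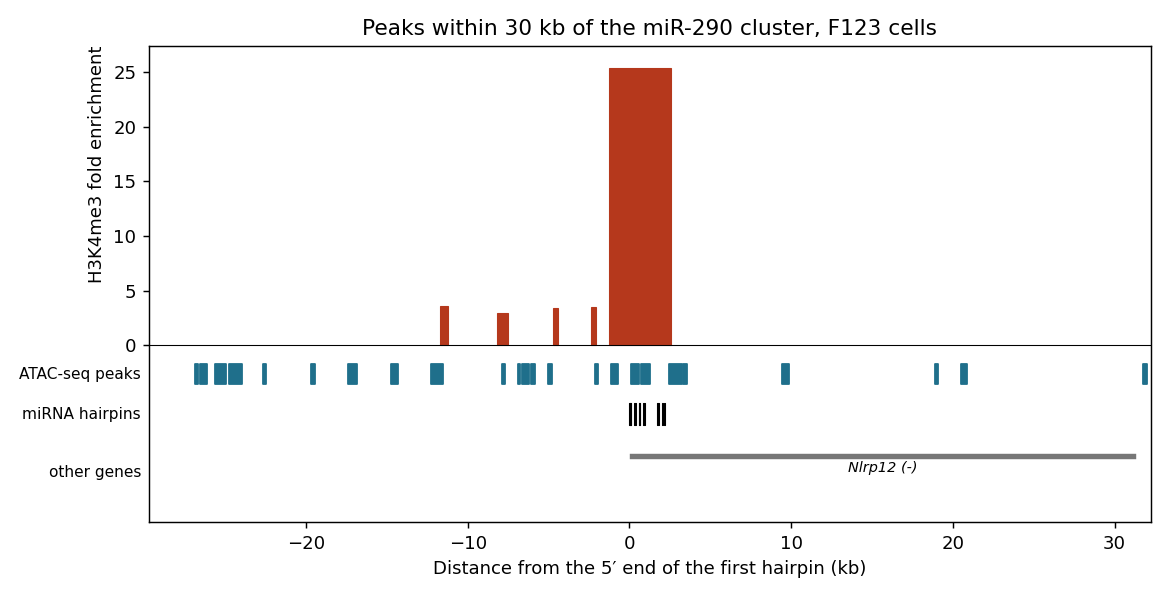
Peaks around the miR-290 cluster. The horizontal axis is the distance in kb from the 5′ end of the Mir290a hairpin and the vertical axis the fold enrichment of each H3K4me3 peak (red bars, drawn at their true width). Blue boxes are ATAC-seq peaks, black boxes miRNA hairpins and the grey line Nlrp12. The peak over the hairpins reaches 25.4 and the 4 others upstream 2.96 to 3.60, while 16 of the 24 ATAC-seq peaks lie upstream.

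Upstream of the cluster, H3K4me3 was weak and ATAC-seq peaks were dense. There were 4 more H3K4me3 peaks, at chr7:3206888-3207383, chr7:3210448-3211129, chr7:3213872-3214234 and chr7:3216252-3216586, with fold enrichments of 3.60, 2.96, 3.42 and 3.51. They were 335 to 682 bp wide and ended 2040 to 11243 bp before the Mir290a hairpin. The peak over the hairpins was 7.06 times as strong as the strongest of them, and between 7.73% and 19.7% of the list was weaker than these peaks. Downstream there was none.

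The 61923 bp window held 24 ATAC-seq peaks, of which 16 lay upstream of the first hairpin, 2 over the cluster and 6 downstream. This is 3.88 peaks per 10 kb, against 0.657 over the genome. The farthest upstream peak ended 26686 bp before the cluster, and the series had gaps of 114 to 3626 bp between neighbouring peaks (median 800 bp). Its 16 peaks covered 6307 bp, and 4 of them touched an H3K4me3 peak. The widest of the window was chr7:3193864-3194657 (794 bp), 23969 bp upstream of the cluster and without H3K4me3. Over the whole window 17 of the 24 ATAC-seq peaks touched no H3K4me3 peak and 17 lay between annotated genes. The matching shares of all ATAC-seq peaks are not given here, so these counts are not read as traits of the locus. In width, 16 of the 24 were at least as wide as the median of the list, 261 bp.

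The miR-302 cluster is more compact. Its 5 hairpins lie within 580 bp on the plus strand, at chr3:127545228-127545807, inside an intron of Larp7, whose gene runs on the minus strand at chr3:127536714-127553349. Larp7 encodes a protein that binds 7SK RNA. In the order of transcription the hairpins are Mir302b, Mir302c, Mir302a, Mir302d and Mir367. An H3K4me3 peak at chr3:127544470-127546469 covered all of them, with 758 bp to spare upstream and 662 bp downstream. Its width was 2000 bp, its fold enrichment 18.3 and its −log10 q 153. Its summit lay 346 bp past the first base of Mir302b, between Mir302a and Mir302d.

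No ATAC-seq peak touched a miR-302 hairpin. The nearest, chr3:127544610-127545194 (585 bp), lay wholly inside the H3K4me3 peak and ended 34 bp before Mir302b (chr3:127545228-127545301, 74 bp). The distance to it grew along the cluster, with 169 bp for Mir302c (chr3:127545363-127545430, 68 bp), 302 bp for Mir302a (chr3:127545496-127545564, 69 bp), 430 bp for Mir302d (chr3:127545624-127545689, 66 bp) and 539 bp for Mir367 (chr3:127545733-127545807, 75 bp). Within the H3K4me3 peak, the miR-302 hairpins thus all lay downstream of a single listed ATAC-seq peak. Those of the miR-290 cluster were interleaved with listed peaks.

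**Figure D2:**
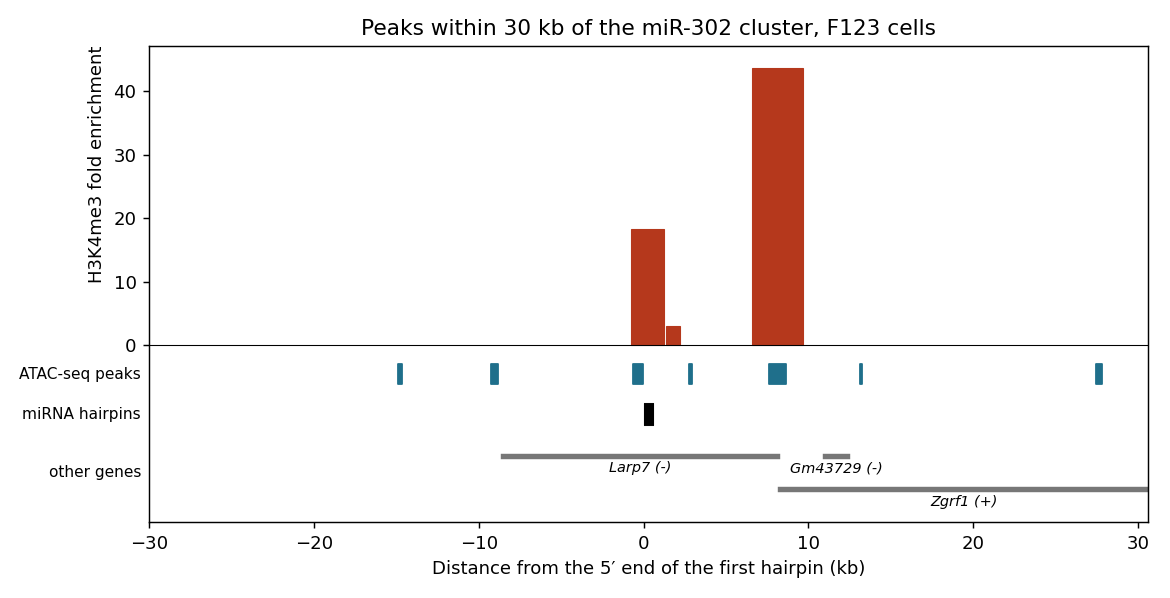
Peaks around the miR-302 cluster, drawn as in the map of the miR-290 cluster, with the distance in kb from the 5′ end of the Mir302b hairpin on the horizontal axis and H3K4me3 fold enrichment on the vertical axis. The peak over the hairpins reaches 18.3, and a stronger one, at 43.7, stands at the starts of Larp7 and Zgrf1. Only 7 ATAC-seq peaks (blue) lie in the window.

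The 60580 bp window held 2 further H3K4me3 peaks, both downstream of the cluster. A weak one at chr3:127546580-127547415 (836 bp) had a fold enrichment of 2.97 and no ATAC-seq peak. The strongest, chr3:127551830-127554872 (3043 bp), had a fold enrichment of 43.7, or 2.39 times that over the hairpins, and held an ATAC-seq peak of 1050 bp. It covers the starts of Larp7 (127553349) and of Zgrf1 (127553489), which runs the other way. Upstream of the cluster no H3K4me3 peak was listed within 30 kb. The start of the antisense gene Gm43729 had no H3K4me3 peak and 1 ATAC-seq peak.

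The miR-302 window held 7 ATAC-seq peaks, 3 upstream and 4 downstream, or 1.16 per 10 kb. Besides the pair in H3K4me3 peaks they lay at chr3:127530315-127530592, chr3:127535944-127536384, chr3:127547971-127548158, chr3:127558342-127558493 and chr3:127572650-127573015. They were 152 to 1050 bp wide. H3K4me3 covered almost as many bases around both clusters, 5736 bp (9.26% of the window) for miR-290 and 5879 bp (9.70%) for miR-302. ATAC-seq peaks covered 9600 bp (15.5%) and 3060 bp (5.05%).

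**Figure D3:**
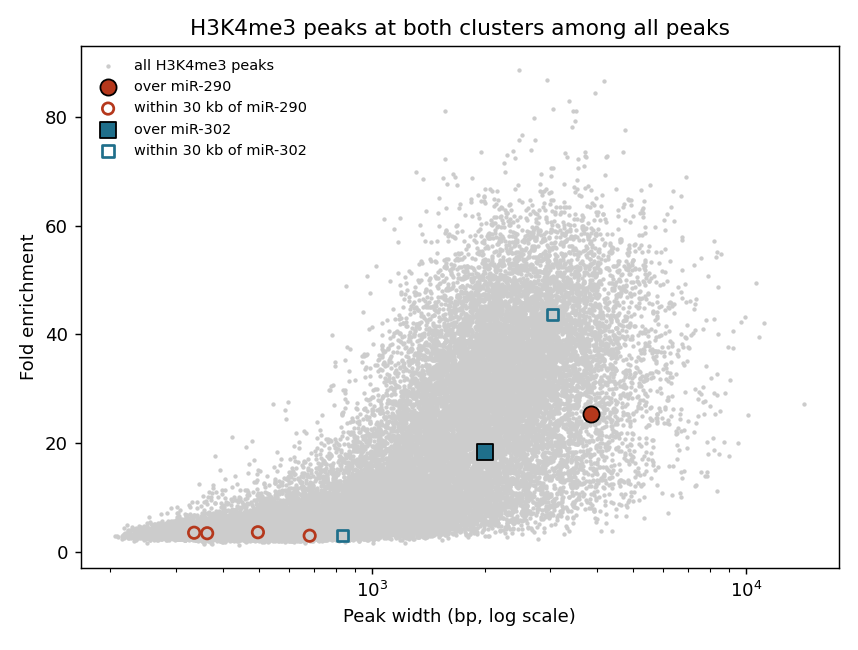
Width (bp, log scale, horizontal axis) and fold enrichment (vertical axis) of all 33487 H3K4me3 peaks (grey). Filled symbols mark the peaks over the miR-290 hairpins (3860 bp, 25.4) and over the miR-302 hairpins (2000 bp, 18.3), and open symbols the other peaks within 30 kb. All open symbols but the one at 43.7 lie at or below 3.60.

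The bases just before the hairpins are shown because each H3K4me3 peak begins upstream of them. Both windows are the plus strand of GRCm38.p6, 300 bases up to the first base of Mir290a or Mir302b, and capitals mark the only motif match.
miR-290, chr7:3218326-3218625: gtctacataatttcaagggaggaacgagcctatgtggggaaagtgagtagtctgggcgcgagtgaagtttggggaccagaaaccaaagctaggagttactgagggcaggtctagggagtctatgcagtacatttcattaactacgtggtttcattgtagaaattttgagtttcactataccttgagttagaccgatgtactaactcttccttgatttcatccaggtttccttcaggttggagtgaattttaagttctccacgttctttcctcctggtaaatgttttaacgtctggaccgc
miR-302, chr3:127544928-127545227: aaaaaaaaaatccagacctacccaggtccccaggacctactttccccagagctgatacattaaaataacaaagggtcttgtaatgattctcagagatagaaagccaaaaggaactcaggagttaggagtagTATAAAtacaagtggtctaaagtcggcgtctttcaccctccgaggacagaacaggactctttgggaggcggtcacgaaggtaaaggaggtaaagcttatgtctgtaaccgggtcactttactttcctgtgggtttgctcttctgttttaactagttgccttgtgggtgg

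Both windows held more CpG than the median miRNA cluster, at a GC content below the median. The miR-290 window held 8 CpG with a GC content of 43.7%, and the miR-302 window 6 CpG with 44.7%. The same window before 1847 annotated miRNA clusters had medians of 3 CpG and 46.0%, or 6 CpG and 54.0% for those with an H3K4me3 peak. At least 8 CpG were found before 21.1% of clusters, and at least 6 before 31.7%. The TATA box letters TATAAA stood on the plus strand at chr3:127545059-127545064, 169 bases before Mir302b, and inside the ATAC-seq peak there. The same letters on either strand were found in 17.0% of all such windows.

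Motifs of factors known in stem cells were also looked for, on both strands, in the central 300 bases of each ATAC-seq peak. The octamer bound by Pou5f1 (ATGCAAAT) was found in 1 of the 24 miR-290 peaks, at chr7:3213805-3213812, against 3.55% of all ATAC-seq peaks. The Sox motif ACAATGG was found in 1 (4.78% of all), the T-box motif AGGTGTGA in 1 (1.63%), the E-box CACGTG in 3 (5.45%) and TATAAA in 3 (11.4%). The orphan receptor motif TCAAGGTCA and the Klf motif GGGCGTGG were found in none, against 0.851% and 3.88% of all. In the 7 peaks of the miR-302 window none of these motifs was found, as the TATAAA before Mir302b lies in its ATAC-seq peak but outside the central 300 bases. CACGTG reads the same on both strands, and the motifs do not contain each other.

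Among all miRNA clusters, miR-290 and miR-302 stood far apart in the number of ATAC-seq peaks. Genes on 1 strand within 10 kb of each other were joined, which gave 1847 clusters, 1723 of them single genes. The median cluster had 6 ATAC-seq peaks within 30 kb and the 95th percentile was 16. With 24, the miR-290 cluster shared rank 5 with n-TStga1, behind Mir101c (42), Mir6546 (33), Mir196b (25) and Gm44456 (25). The miR-302 cluster had 7, a number reached by 47.6% of clusters. Among the 27 clusters of at least 3 genes the ranks were 2 and 16. With other definitions of a cluster or only the wider ATAC-seq peaks, miR-290 ranked between 2 and 12.

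**Figure D4:**
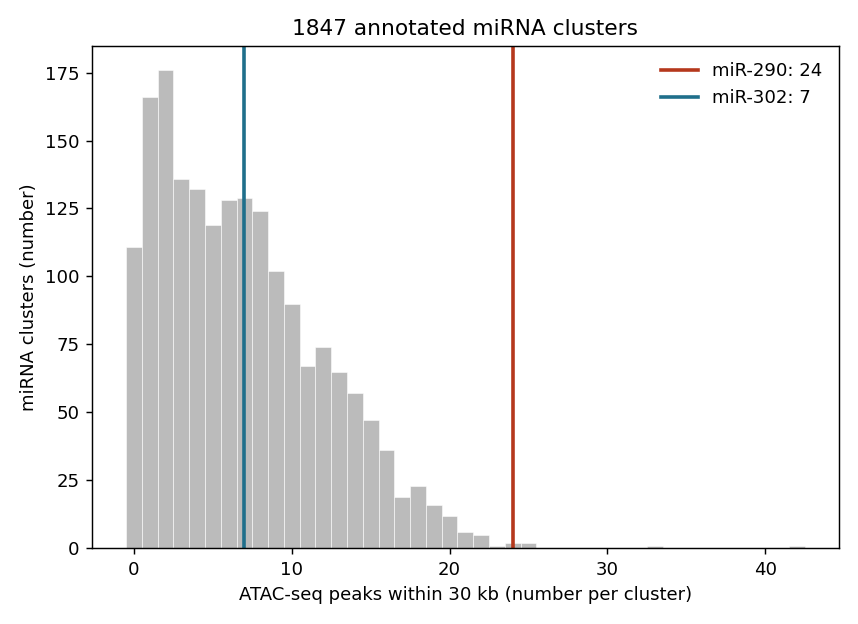
Number of ATAC-seq peaks within 30 kb (horizontal axis) of 1847 annotated miRNA clusters, as a histogram of clusters (vertical axis). The line at 24 marks the miR-290 cluster, in the tail above the 95th percentile of 16, and the line at 7 marks miR-302, next to the median of 6.

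H3K4me3 set both clusters less far apart than ATAC-seq did. Within 30 kb, miR-290 had 5 H3K4me3 peaks and miR-302 had 3, above the median of 1. At least as many were found at 15.9% and 31.1% of clusters. The bases covered there, 5736 and 5879 bp, were also above the median of 1792 bp, while fold enrichment lay closer to the middle. An H3K4me3 peak lay over or within 5 kb upstream of 27.4% of clusters (507 of 1847), and an ATAC-seq peak of 50.2%. In fold enrichment of the strongest such peak, miR-290 ranked 268 and miR-302 ranked 331 of 507, around and below the median of 26.2. A promoter of a coding gene nearby can supply such a peak, so clusters away from them were looked at as well. The nearest start of a coding transcript was 30987 bp from Mir290a and 8119 bp from Mir302b. Among the 1350 clusters over 5 kb from every such start, H3K4me3 was listed for 12.8% and an ATAC-seq peak for 39.4%. There the ranks in fold enrichment were 42 and 57 of 173, above a median of 10.5, and the ranks in ATAC-seq peaks 3 and 436 of 1350.

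Few clusters of several genes lay whole inside a single H3K4me3 peak, a property looked at after the values were seen. Of the 27 clusters of at least 3 genes this held for 4 (14.8%), namely miR-290, miR-302, the cluster of Mir17 (Mir17, Mir18, Mir19a, Mir20a, Mir19b-1 and Mir92-1) and that of Mir106a (Mir106a, Mir18b, Mir20b, Mir19b-2, Mir92-2 and Mir363). By the 1679 mature arms analysed, all 4 contain a miRNA with the core AAGUGC described above. So does 1 further cluster of the 27, that of Mir25, Mir93 and Mir106b, which did not lie inside a single peak. Arms missing from the 1679 were not searched, so other clusters of the 27 may hold the core as well. The 4 clusters inside a single peak are also short, at 2216, 580, 836 and 875 bp. Of the 13 clusters no longer than the miR-290 cluster, the other 9 were not inside a single peak. Of the 23 clusters that did not lie inside one, 12 had an H3K4me3 peak over them or within 5 kb upstream and 11 had none.

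The rest of the miR-290 cluster followed its members. Mir290a, Mir290b, Mir291b, Mir292, Mir292b and Mir293 all lay under the same H3K4me3 peak. An ATAC-seq peak overlapped 3 of the 6 (Mir291b, Mir292 and Mir292b), against 14.4% of all miRNA genes. Only Mir291b was covered whole. The edge of a peak shared 13 of the 82 bp of Mir292 and 4 of the 62 bp of Mir292b, which is annotated at the same hairpin. Of the 15 genes in the clusters of Mir17, Mir106a and Mir106b, whose members include the miR-17 family, 15 had H3K4me3 and 15 an ATAC-seq peak over them or within 5 kb upstream. These are 3 loci, with fold enrichments of 40.5 (Mir17), 29.0 (Mir106a) and 37.3 (Mir106b), each above the 25.4 of miR-290 and the 18.3 of miR-302. The peak lay over 12 of the 15 genes, and at Mir106b, Mir93 and Mir25 it lay upstream.

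The let-7 family is known to accumulate when stem cells differentiate. A smaller share of its genes had a peak than of the members and the miR-17 clusters. Genes of a cluster share peaks, above all in those sets, so these shares count genes and not separate loci. Of its 12 genes 5 (41.7%) had H3K4me3 and 7 (58.3%) an ATAC-seq peak, against 26.1% and 47.3% of all miRNA genes. The strongest H3K4me3 peaks were at Mirlet7i (58.0) and Mirlet7e (44.2). Mirlet7g had 40.5, while Mirlet7a-1 and Mirlet7f-1 shared a peak of 2.45. No H3K4me3 peak was listed for Mirlet7a-2, Mirlet7b, Mirlet7c-1, Mirlet7c-2, Mirlet7d, Mirlet7f-2 and Mir98. Mature let-7 levels are also set after transcription, which these peaks do not measure.

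H3K4me3 was also listed at miRNAs known for other tissues. Of 11 miRNA genes known for muscle, neurons or blood, H3K4me3 was listed for 8 and an ATAC-seq peak for 9, shares of 72.7% and 81.8% against the 26.1% and 47.3% of all miRNA genes. Mir9-2 and Mir124a-3, of the nervous system, had the strongest, at 31.9 and 24.3, close to or above the peak of the miR-290 cluster. Mir133a-2, Mir206 and Mir223 had none.

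**Figure D5:**
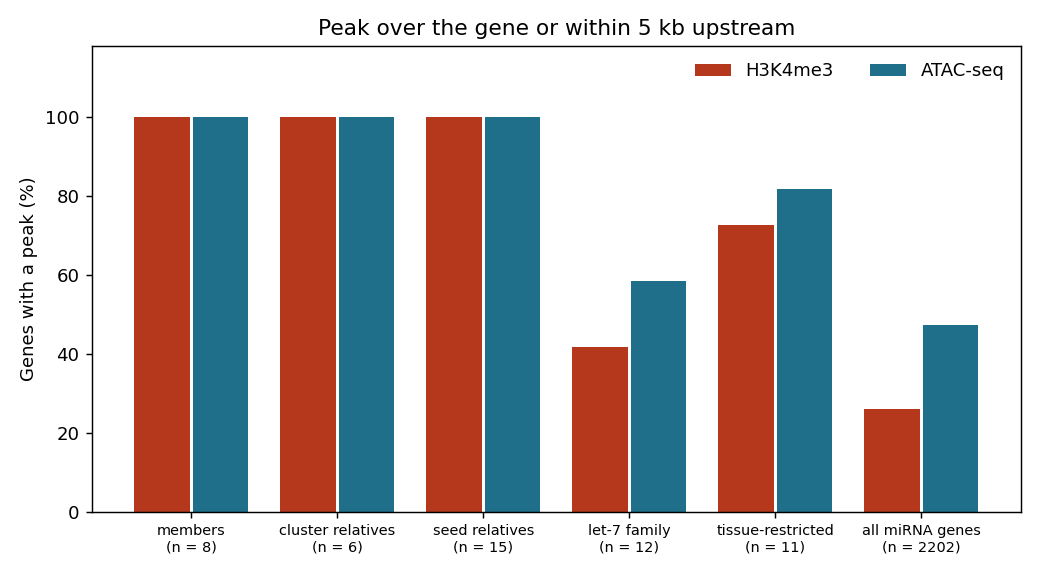
Share of genes (vertical axis, percent) with an H3K4me3 peak (red) or an ATAC-seq peak (blue) over them or within 5 kb upstream. The 8 members and the 6 other genes of the miR-290 cluster (cluster relatives) stand at 100%. So do the 15 genes of the miR-17 family clusters (labelled seed relatives), some of which have another seed. The let-7 family, the miRNAs of other tissues (tissue-restricted) and all 2202 miRNA genes (26.1% and 47.3%) stand lower. Genes of a cluster share peaks.

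Of the 9 coding genes known as targets of these miRNAs, 8 had an H3K4me3 peak within 1 kb of the start and 8 an ATAC-seq peak. The fold enrichments ranged from 14.3 to 49.2, with a median of 35.4. They were highest at Ei24 (49.2), a gene of cell death, and at Cdkn1a (45.6), which encodes the cell cycle inhibitor p21. Lats2, a kinase of the Hippo pathway, had none at its outermost start, but 6 of its 8 annotated starts had a peak. The background over all protein-coding genes is the 65.1% and 70.9% given above, and the miRNAs act on these genes after transcription.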

How the data were processed

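For H3K4me3 ChIP-seq, the authors ran the histone pipeline of ENCODE and deposited replicated peaks with a fold enrichment (a ratio), a −log10 q and a summit. Per the submitters' processing notes, ATAC-seq processing used MACS2 2.1.1.20160309, Bowtie 1.1.2, bedtools 2.27.1 and SAMtools. The authors deposited the pooled ATAC-seq peaks found in both replicates, as positions only. The display scores and p-values in the H3K4me3 list were not used here.

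Peaks were compared with genes of GENCODE M21 (mm10), with an overlap of at least 1 bp, in Python 3.11.15 with pandas 2.3.3. Peaks on 21 chromosomes were checked against mm10 and 0 ran past an end. Overlaps were tested on simulated data and against bedtools 2.31.1. Both lists stand for 2 replicates each, so groups were not tested against each other. A peak at a coding gene lay within 1 kb of its outermost start. Named were the members, the other miRNA genes of both clusters, genes starting within 30 kb, and in each list the strongest 2 and those without a peak. Members, lists and windows were chosen with earlier results of these data known.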

Additional observations from a re-analysis of the deposited data

How the results depend on the processing

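The counts near each cluster were recomputed with other flanks, with peak midpoints, with all hairpins as the cluster, and with stricter lists (a −log10 q of at least 5 for H3K4me3, a width of at least 261 bp for ATAC-seq). Of 42 alternatives, 30 left a count within 1.5 times that reported or a share within its 95% Wilson interval. With 10 kb flanks, 12 ATAC-seq peaks remained near miR-290 and 4 near miR-302, and with 50 kb flanks 8 H3K4me3 peaks lay near miR-290. The share of clusters with an H3K4me3 peak was 17.7% within 1 kb upstream and 34.2% within 10 kb, and that with an ATAC-seq peak 25.7% and 64.9%. Alternatives chosen after seeing the data gave 36.4% and 58.7% over clusters with Mir symbols, and 12.8% and 39.4% over clusters more than 5 kb from coding starts. The share with an ATAC-seq peak was 37.7% in the stricter list. These alternatives changed the window, the peak list or the set of clusters counted, and the reasons for the shifts were not tested. No paired analysis was possible because neither list separates its replicates, and for the same reason leaving out each replicate could not be run.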
